A study of Homo sapiens with 4 samples.

Results

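The HOX genes encode homeodomain transcription factors and lie in 4 clusters, HOXA on chromosome 7, HOXB on chromosome 17, HOXC on chromosome 12 and HOXD on chromosome 2. All protein-coding genes named HOXA, HOXB, HOXC or HOXD with a number were taken, which gave 39 of 20037 protein-coding genes. Peaks of the transcription factor USF1 were assigned to them when the peak centre fell between the outermost HOX genes of a cluster or within 10 kb beyond, which gave the GRCh38 intervals chr7:27082993-27210091, chr17:48518526-48738750, chr12:53928831-54066030 and chr2:176077487-176200907. That held for 8 of the 14300 peaks called in the first immunoprecipitate (list 1) and for 21 of the 27325 called in the second (list 2). The members were defined by name and position. The family was singled out because its strongest peaks were already known from these lists, so its peak values are given as a description and no test was made on them.

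Chromatin came from Huh7, a human hepatocellular carcinoma line, in which USF1 was overexpressed, to learn which genes the factor acts on. The 4 libraries comprised 2 anti-FLAG immunoprecipitates (IP 1 and IP 2) and 2 samples of input chromatin (input 1 and input 2), and all of them came from the same line. List 1 sets IP 1 against input 1, and list 2 sets IP 2 against input 2. The IP libraries kept 47165647 and 43942638 tags after removal of duplicates, and the inputs 46345938 and 43562726. The labels do not say whether the replicates were separate cultures, and binding of USF1 at its natural level, an IgG control and RNA were not analysed here. Whether the HOX genes were transcribed in these cells is therefore not part of the data. The spread between replicates is shown as the value in each list.

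Genes within a HOX cluster point in the same direction, and their order along the chromosome mirrors the order in which they act along the body axis of the embryo. Members that descend from the same ancestral gene form paralogue groups, numbered 1 to 13. Low numbers are used toward the head and high numbers toward the tail and the limb tips. In differentiated cells the clusters are held silent over long stretches by Polycomb proteins or kept open by proteins of the Trithorax and MLL type, and HOX genes are often expressed out of place in tumours. USF1 is a basic helix-loop-helix leucine zipper factor that binds as a dimer to the E-box, classically CACGTG.

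All 8 list 1 peaks in the clusters overlapped a list 2 peak, and 7 of them had their summit less than 200 bp from an annotated HOX gene start. Over all genes, 1907 of 5336 overlapping list 1 peaks were centred within 1 kb of a protein-coding gene end, a wider rule. Among the places of the 8 HOX peaks were HOXA7, HOXA11, HOXB7, HOXC9, HOXC13, HOXD9 and HOXD11. The strongest were HOXC13, HOXB7 and HOXA7, each with more than 16 times the tags expected in list 1 and at least 26 times in list 2. List 2 held the same 8 places and 13 more, of which 6 lay at the starts of HOXA4, HOXA5, HOXB6, HOXC10, HOXC11 and HOXD10. The map of the clusters shows these places with the position and height of the peaks.

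**Figure D1:**
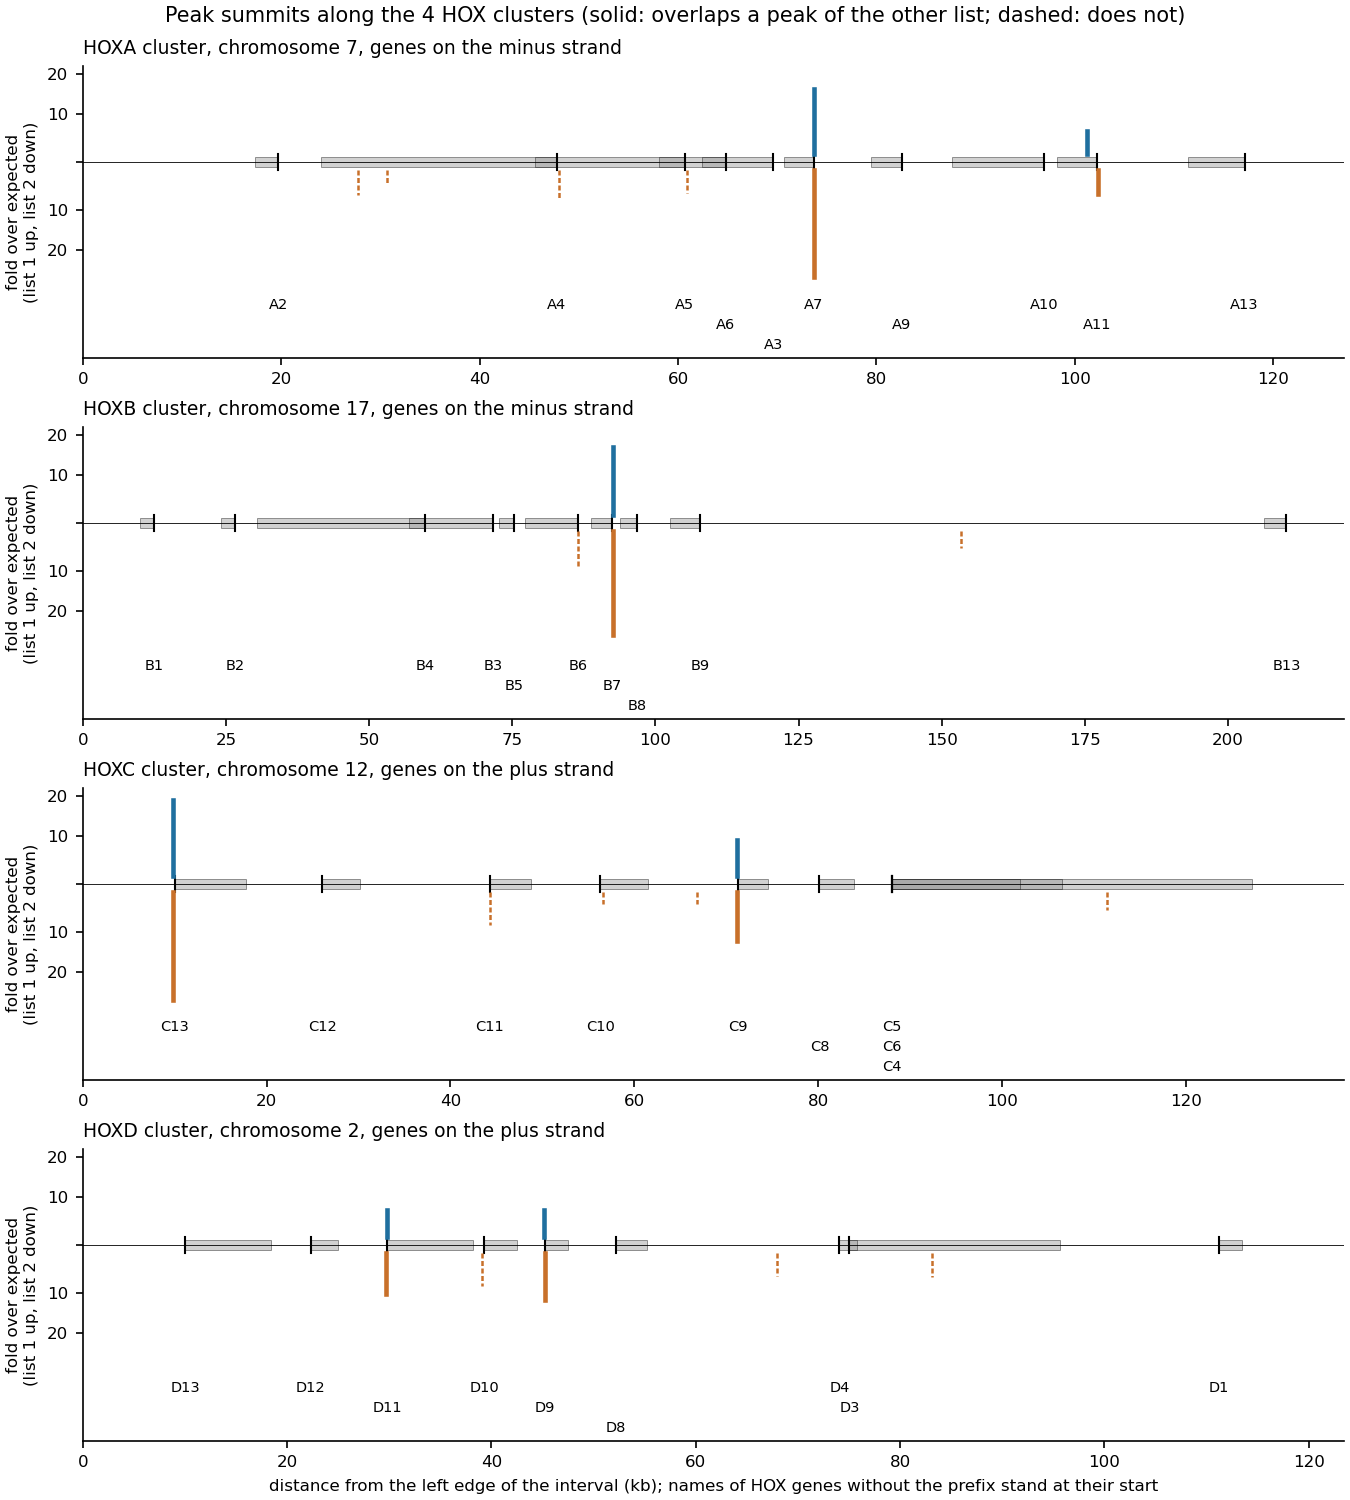
Peak summits along the 4 HOX clusters, by distance from the left edge of each interval in kb, for the members reported singly. Grey boxes are HOX genes with a black tick at the start, and the vertical lines give the authors' fold over expected tags, upward for list 1 and downward for list 2. Solid lines overlap a peak of the other list and dashed lines do not, and all 13 dashed lines belong to list 2.

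The promoter of HOXA7 shows how close a peak could sit to an E-box. The RefSeq promoter table (GRCh38.p14), which spans 250 bases before to 50 after each start, held entries for 20 of the 39 genes, with 26 distinct windows. Among the genes without an entry were HOXB7, HOXC9, HOXC13 and HOXD9. The bases under their peaks were not read, and the E-box counts below do not cover them. Of the 26 windows 9 (34.6%) contained CACGTG, against 8.32% of 22078 windows of all protein-coding genes. HOXB was represented by HOXB1 alone, and HOXC by HOXC4 and HOXC5, which have the same window. All other windows belonged to HOXA or HOXD genes, several of them to HOXA3, so the share describes mainly these clusters. The windows with CACGTG of HOXA3, HOXD3 and HOXD13 belong to starts inside those genes. The 4 HOX promoters whose E-box lay under a peak are printed here because the peak values below refer to them, together with 2 promoters that hold the same letters and had no peak in either list. All are 5′ to 3′ on the strand of the gene, the E-box is in capitals, and HOXA7 is shown from 250 bases before its start.
HOXA7, chr7:27156670-27156925, minus strand: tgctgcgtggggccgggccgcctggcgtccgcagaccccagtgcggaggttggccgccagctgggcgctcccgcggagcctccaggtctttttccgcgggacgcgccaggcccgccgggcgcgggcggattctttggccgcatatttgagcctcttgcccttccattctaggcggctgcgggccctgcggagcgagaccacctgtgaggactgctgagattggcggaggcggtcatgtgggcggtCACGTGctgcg
HOXD11, chr2:176107130-176107255, plus strand: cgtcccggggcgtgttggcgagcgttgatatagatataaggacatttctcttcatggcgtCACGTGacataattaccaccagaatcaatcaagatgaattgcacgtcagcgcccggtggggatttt
HOXA4, chr7:27130892-27131007, minus strand: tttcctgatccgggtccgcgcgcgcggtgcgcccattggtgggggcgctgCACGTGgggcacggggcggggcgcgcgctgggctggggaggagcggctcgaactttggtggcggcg
HOXD10, chr2:176116612-176116737, plus strand: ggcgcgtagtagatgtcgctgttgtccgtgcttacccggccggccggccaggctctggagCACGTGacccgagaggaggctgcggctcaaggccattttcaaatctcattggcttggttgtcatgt
HOXA9, chr7:27165543-27165668, minus strand: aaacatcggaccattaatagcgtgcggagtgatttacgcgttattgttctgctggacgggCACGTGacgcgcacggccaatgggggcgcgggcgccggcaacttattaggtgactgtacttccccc
HOXD1, chr2:176188555-176188673, plus strand: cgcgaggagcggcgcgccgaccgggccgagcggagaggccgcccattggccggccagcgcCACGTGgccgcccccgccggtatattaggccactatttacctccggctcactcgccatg

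In HOXA7 the E-box spanned chr7:27156675-27156680 and ended on the first transcribed base. The summit was 0.500 bp from the centre of this E-box in list 1 and 5.50 bp in list 2, and the way the caller counts positions leaves 1 bp of doubt in each summit. In HOXD11 the E-box began 90 bases before the start, and the summits lay 41.5 bp to one side of it in list 1 and 45.5 bp to the other in list 2. HOXA4 and HOXD10 had a peak in list 2 alone, with summits 12.5 bp and 142 bp from their E-boxes, which began 200 and 106 bases before the start. Over all 696 protein-coding promoters with CACGTG and a peak in both lists, the median distance from summit to motif was 21.5 bp in list 1 and 18.5 bp in list 2. So the HOXA7 summits lay nearer to their E-box than the median promoter, the HOXD11 summits and that of HOXD10 farther, and the single HOXA4 summit nearer than the list 2 median. For HOXA4 and HOXD10 the comparison is unlike, since these medians leave out promoters with a peak in list 2 alone.

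Not every HOX promoter with the letters carried a peak. Of the 9 HOX windows with CACGTG, 2 overlapped a peak in list 1, 4 in list 2 and 2 in both. Among all 1836 protein-coding windows with CACGTG, 40.6% did so in list 1, 56.3% in list 2 and 37.9% in both lists. The HOX counts are small, and 2 of 9 (22.2%) is no larger a share than the background. Windows with CACGTG and no peak belonged to HOXA9, HOXD1 and the inner starts of HOXA3, HOXD3 and HOXD13. The HOXA9 E-box lay 8906 bp from the closest peak centre of list 1 and 9010 bp from that of list 2. For the HOXD1 E-box these distances were 59432 bp and 28104 bp.

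The bases beside the E-box were also read, after the values had been seen. USF proteins are known to prefer GT before or AC after the core, and GTCACGTG, searched on both strands and always containing CACGTG, was present in the windows of HOXA7, HOXA9, HOXD10 and HOXD11. Of these 4 windows, 2 had a peak in both lists, against 67.3% of the 678 protein-coding windows with the same 8 letters. The 5 HOX windows with CACGTG in another setting had 0 such peaks, against 20.7% of 1158 windows. HOXD11 held the letters on both strands, as a palindrome. The HOX promoters without CACGTG were 17 windows, and 1 of them, that of HOXA11, overlapped a peak in both lists (8.76% of 20242 windows over all genes). A match says only that the letters are there.

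Values of single members follow by paralogue group. Fold is the authors' own value, the height of IP tags at the summit divided by what the caller expected there, and tags are counts over the whole peak, not scaled to library size. The authors' false discovery rate (FDR) comes from peaks called with IP and input exchanged. A gene-end peak has its centre within 1 kb of either end of the gene.

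Both members of paralogue group 7 were occupied, and this was the only group in which every gene had a gene-end peak in both lists. HOXA7 (list 1 peak at chr7:27155747-27157651) held 258 tags in list 1 and 273 in list 2, at a fold of 16.4 and 26.7. HOXB7 is known for its overexpression in several carcinomas. Its list 1 peak spanned chr17:48610518-48612124, and the gene held 242 and 293 tags at a fold of 17.1 and 26. Both genes had an FDR of 0 in each list. The HOXB7 summits were 28 bp and 35 bp upstream of the start, against 3 bp upstream and 3 bp downstream for HOXA7. The 2 genes thus had like values in each list although they lie on different chromosomes. Among all peaks ranked by fold, HOXA7 was number 91 of list 1 and 47 of list 2, and HOXB7 number 77 and 53.

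Paralogue group 9 had a peak in both lists at HOXC9 and HOXD9 and none at HOXA9 or HOXB9. HOXC9 (chr12:53999295-54000845 in list 1) held 178 and 257 tags at a fold of 9.03 and 12.3, with summits 96 bp and 103 bp upstream of the start. An end of the long non-coding gene HOXC-AS1 lies 55 bp and 48 bp from these summits. HOXD9 (chr2:176122300-176123114 in list 1) held 63 and 88 tags at a fold of 6.93 and 11.7, with summits 53 bp and 35 bp upstream. Its tag count was therefore below that of HOXC9 in each list, in a peak of 815 bp against 1551 bp in list 1. The FDR of HOXC9 was 16.1% in list 1 and 0.170% in list 2, and that of HOXD9 72.3% and 0.100%.

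In group 11, HOXD11 and HOXA11 had peaks in both lists. HOXD11, which acts with its neighbours in limb patterning, had its list 1 peak at chr2:176106717-176107611 and held 59 and 61 tags at a fold of 6.93 and 10.2 (FDR 57.9% and 0.250%). HOXA11 takes part in forming the kidney, the forearm and the uterus. The fold at HOXA11 (chr7:27183857-27185736 in list 1) was 5.67 and 6.02, the lowest of the 8 places, with 149 and 248 tags. Its FDR was 58.3% in list 1 and 0.240% in list 2. Summits of the HOXA11 peak did not coincide between the lists: in list 1 the summit lay 979 bp downstream of the start, inside the gene, and in list 2 it lay 58 bp upstream, 118 bp from the antisense gene HOXA11-AS. The list 2 peak was 3347 bp wide and the list 1 peak 1880 bp.

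HOXC13, a regulator of hair and nail keratins, had the highest fold of the family. It held 295 tags in list 1 and 447 in list 2, at a fold of 19.2 and 27.1 and an FDR of 0 in each. The peak covered chr12:53937601-53939640 in list 1, with its summit 162 bp upstream of the start, and the list 2 summit was 177 bp upstream. These summits fall inside the antisense gene HOXC13-AS, 974 bp and 989 bp from its nearer end. By fold the peak ranked number 44 in both lists. The other 3 members of group 13, HOXA13, HOXB13 and HOXD13, had no gene-end peak in either list.

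The 8 places had a higher fold in list 2 in every case, by a ratio between 1.06 (HOXA11) and 1.71, with a median of 1.49. The background was high as well, since 62.7% of all 5377 overlapping pairs had the higher fold in list 2, with a median ratio of 1.12. Tag counts were higher in list 2 at 7 of the 8 places, and in 3378 of all 5377 pairs. The summits of the 2 lists lay 6 to 1037 bp apart, with a median of 16.5 bp against 38 bp over all pairs. At 7 of the 8 places they lay within 100 bp, as they did in 4044 of all 5377 pairs. The plot of folds sets the 8 pairs among all others.

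**Figure D2:**
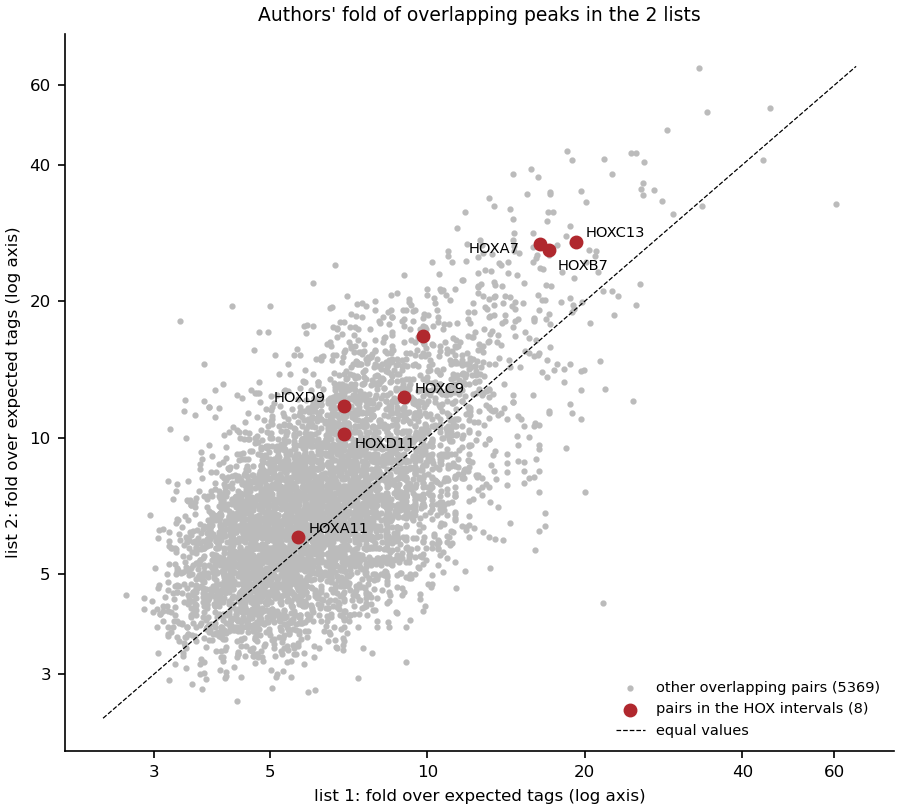
Authors' fold over expected tags of overlapping peaks, list 1 on the horizontal and list 2 on the vertical log axis. Red points are the 8 pairs in the HOX intervals and grey points the 5369 other pairs, and all 8 red points lie above the dashed line of equal values, with HOXA11 (5.67 and 6.02) nearest to it.

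Measured against the other peaks of the same list, the HOX peaks in both lists were wide and rich in tags. Their median width was 1618 bp in list 1 and 1796 bp in list 2, where all overlapping peaks had medians of 866 bp and 979 bp. Median tags were 168 and 252, beside 60 and 68 over all overlapping peaks, and median fold was 9.41 and 14.5, beside 6.37 and 7.03. A closer comparison is with overlapping peaks at protein-coding gene ends, since nearly all the HOX peaks lie there. Those had a median width of 1088 bp and 1320 bp, 85 and 99 tags and a fold of 5.69 and 6.56. Tag density, which takes out width, was 106 and 103 tags per kb at the HOX places, against 74.7 and 70.3 at all such gene ends. The family was chosen with its strongest peaks known, so nothing is read from these differences. In list 1 the narrowest of the 8 were HOXD9 (815 bp) and HOXD11 (895 bp), and HOXC13 was the widest with 2040 bp. In list 2 HOXD11 was the narrowest (875 bp) and HOXA11 the widest (3347 bp).

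All 8 list 1 peaks of the clusters (100%) overlapped a list 2 peak, where 37.3% of all list 1 peaks did. For list 2 the count was 8 of 21 (38.1%, 95% Wilson interval 20.8 to 59.1%), where 19.6% of all list 2 peaks overlapped list 1. The interval covers counting error only, and with 8 peaks that for list 1 reached from 67.6 to 100%. Both backgrounds include peaks away from genes, whereas nearly all the HOX peaks found in both lists lie at gene starts. Counted by gene, 2994 protein-coding genes had a gene-end peak in list 1, 6024 in list 2 and 2265 in both. For HOX genes these counts were 8, 13 and 7. By cluster, HOXA had 3 list 1 and 7 list 2 peaks, HOXB 1 and 3, HOXC 2 and 6, and HOXD 2 and 5. HOXB had the fewest, and its interval is the longest, at 220 kb against 123 to 137 kb for the others. That interval includes a long stretch without HOX genes, between HOXB9 (end at chr17:48626358) and HOXB13 (from chr17:48724763). Peaks in the 608 kb of all intervals numbered 1.32 per 100 kb in list 1 and 3.45 in list 2, beside 0.530 and 1.01 over the effective genome size given to the caller.

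Counted by gene, 8 of the 39 HOX genes (20.5%) had a peak centre within 1 kb of either gene end in list 1, and 13 (33.3%) in list 2. Over all protein-coding genes the shares were 14.9% and 30.1%. In both lists 7 HOX genes did (17.9%, 95% Wilson interval 8.98 to 32.7%), against 11.3% of all genes, a share inside that interval. Among these were HOXA7, HOXB7, HOXC9, HOXC13, HOXD9 and HOXD11. HOXA11 was left out because its wide list 2 peak is centred 1147 bp from the gene end, just beyond the limit, and it counts when summits are used. HOXB8, whose nearest list 1 centre is the HOXB7 peak at 1025 bp, was also just outside, and HOXC10 (896 bp) and HOXC9 (864 bp) were just inside in list 2. No gene-end peak in either list was found for 25 of the 39 genes.

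Among strong peaks the HOX share stood further from the background. When the fold had to reach 8 in each list, 5 of the 39 genes (12.8%, 5.60 to 26.7%) had a gene-end peak, among them HOXA7, HOXB7, HOXC9 and HOXC13, against 2.07% of all genes. When the FDR had to be 5% or lower in each list, HOXA7, HOXB7 and HOXC13 remained, 3 of 39 (7.69%, 2.65 to 20.3%) against 1.08%. These 3 genes led to the choice of the family, so nothing is read from the difference. The plot of shares sets the HOX genes beside all genes under each rule.

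**Figure D3:**
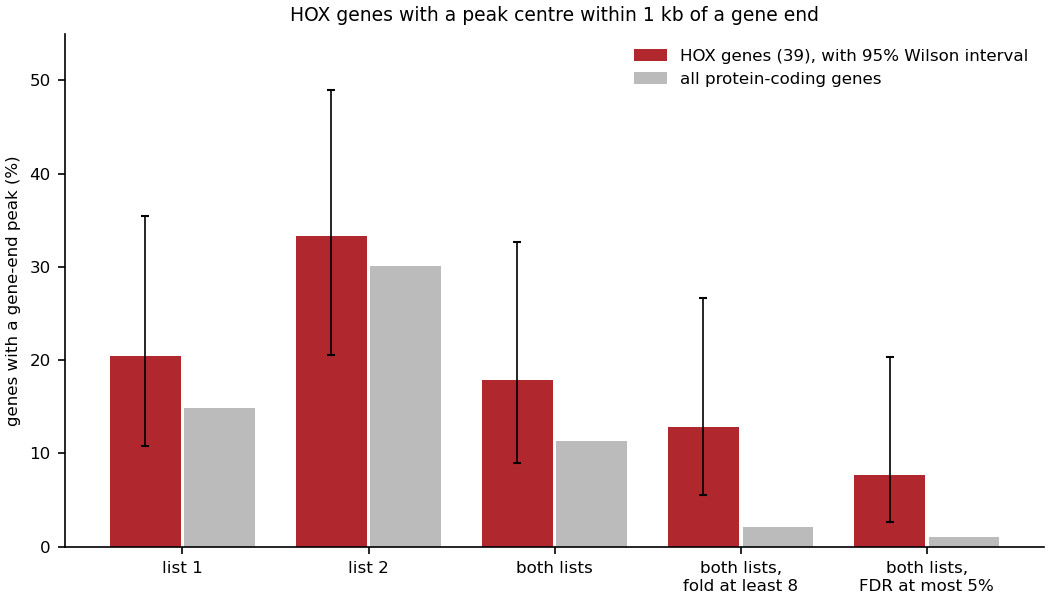
Percent of genes with a peak centre within 1 kb of a gene end, under 5 rules, for the 39 HOX genes (red, error bars are 95% Wilson intervals) and all 20037 protein-coding genes (grey). The red bars fall from 33.3% in list 2 to 7.69% under the FDR rule, and the grey bars from 30.1% to 1.08%.

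Each paralogue group has 2 to 4 genes, too few to set the groups apart. Groups 2, 3, 8 and 12 had no gene-end peak in either list. In groups 4, 5, 6 and 10 such peaks were found in list 2 alone, at HOXA4, HOXA5, HOXB6, HOXC10 and HOXD10. In cluster HOXB, where HOXB7 and HOXB6 were occupied in list 2, the genes from HOXB1 to HOXB5 had no gene-end peak in either list.

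Peaks found in list 2 alone were weaker. Their fold ranged from 2.97 to 8.86 with a median of 5.82, beside 5.33 over all list 2 peaks without an overlap. The strongest was at HOXB6, with 76 tags, a fold of 8.86 and a summit 20 bp upstream of the start. HOXC11 came next, with 138 tags, a fold of 8.30 and a summit 6 bp upstream, inside the body of HOTAIR, a long non-coding RNA known for its link to Polycomb. HOXD10 had 44 tags at a fold of 8.15, and HOXA4 had 86 tags at a fold of 7.06. HOXA5, a known tumour suppressor in breast, had 127 tags at a fold of 5.71, 190 bp upstream. The annotated HOXA3 gene is long and reaches across HOXA4 and HOXA5, so both of these summits also lie inside HOXA3. FDRs of these 5 peaks were between 0.790% (HOXB6) and 7.52% (HOXC11).

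The widest peak in the clusters covered 7357 bp around the start of HOXC10, in list 2 alone. It held 490 tags, the most of any HOX peak, at a fold of 2.97, the lowest. The summit lay 239 bp downstream of the HOXC10 start and also inside HOXC-AS3. The rank of this peak in list 2 was 72 by tags and 27121 by fold, and its FDR was 5.91%. The remaining 7 list 2 peaks lay more than 1 kb from the outermost start of a HOX gene, which is the start used for all these distances. The peak at chr7:27113334-27114606, with a fold of 3.60, covers the promoter window of a start inside HOXA3. Of these, 2 lay in the long HOXA3 gene, 1 in HOXC4, 1 in HOXD3, and 3 outside HOX genes: between HOXC10 and HOXC9, between HOXB9 and HOXB13 and between HOXD8 and HOXD4. Their folds were 3.03 to 6.19. The plot of summits against starts shows the difference in place.

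**Figure D4:**
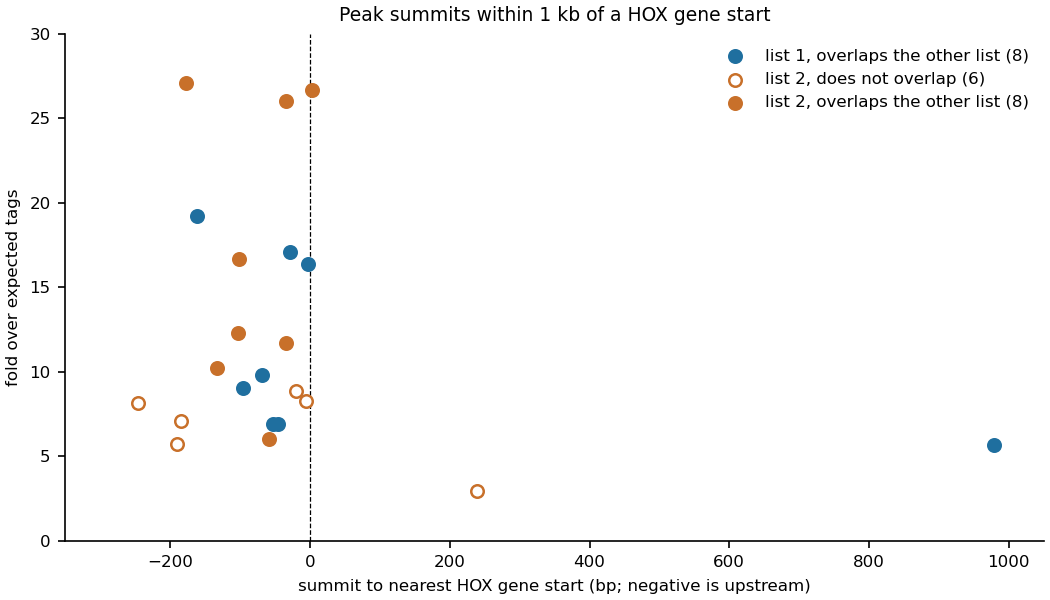
Distance from peak summit to the nearest outermost HOX gene start in bp (negative is upstream) against the authors' fold over expected tags, for the 22 of 29 peaks within 1 kb of a start. Filled points overlap a peak of the other list and open points do not. The filled points lie between 177 bp upstream and 3 bp downstream except the list 1 peak of HOXA11 at 979 bp downstream.

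The distance from the outermost HOX genes to the next peaks beyond the intervals varied widely, and whether it differs from the usual spacing of peaks was not tested. In list 1 the closest centre outside was 17.4 kb from the first HOXB gene, and on the other sides the gaps ran from 57.1 to 540 kb. In list 2 the gaps ran from 28.4 to 374 kb. With 50 kb added on each side in place of 10 kb, the intervals held 9 and 23 peaks. The HOXC13 peak of list 1 was centred 210 bp outside the outermost HOXC gene and came in through the added 10 kb.

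Other genes of the HOX system were read in the same way, in lists made with earlier results of these data known. Nothing is therefore read from the shares in these lists, and their intervals cover counting error only. Of the 9 TALE-class cofactors, which bind DNA together with HOX proteins, PKNOX1 alone had a gene-end peak in both lists, at a fold of 4.79 and 4.61 with an FDR of 100% in list 1. Of 13 ParaHox and HOX-linked homeobox genes, GBX2 had such a peak at a fold of 18.2 and 14.2, and CDX4 at 7.28 and 6.73. Of 21 other homeobox genes that lie in small clusters, DLX2 was the single one, at a fold of 5.91 and 11.6. In the Polycomb and MLL group, whose proteins silence or open the HOX clusters, 6 of 28 (21.4%) had such a peak against 11.3% of all genes, a value within the Wilson interval of 10.2 to 39.5%. In list 2, with or without list 1, the group had 17 of 28 (60.7%, 42.4 to 76.4%), against 30.1% of all genes, and in list 1 it had 8 (28.6%, 15.3 to 47.1%) against 14.9%. Ranked by the lower of their 2 folds, the first 4 were the H3K27 demethylase gene KDM6A (19.0 and 22.5), PHC2 (10.0 and 15.3), BMI1 (9.03 and 8.15) and PHC3 (6.70 and 9.64). CDX4, DLX2 and PHC3 had the same list 1 FDR as PKNOX1, which was also the median over all list 1 peaks. The list 1 FDR was 2.29% for KDM6A, 7.41% for GBX2, 14.1% for PHC2 and 33.8% for BMI1.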

How the data were processed

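USF1 binding in Huh7 cells was read from 2 deposited peak lists. Per the file headers, the authors called peaks with MACS 1.4.2, each IP against its own input, from alignments whose names mark them as unique, at a p cutoff of 1e-05. Per the file headers, at most 1 tag counted at a position, and the deeper library of each pair was scaled down. GRCh38, Bowtie2, deepTools and HOMER are named per the submitters' processing notes, without roles. Each deposited peak carries the authors' count of tags, a fold (ratio to expected tags), a score (minus 10 times log10 of the caller's p) and an FDR in percent. These are the authors' values for single peaks and were used to describe and rank within a list.

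Peaks overlapping by at least 1 bp were paired. A gene-end peak has its centre within 1000 bp of either end of a gene in the RefSeq table of GRCh38.p14. For genes not in the promoter table, the start was set by the strand of the other genes of the cluster (HOXB1 alone for HOXB). The 250 bases before and 50 after a start were searched for CACGTG. Analyses used Python 3.11.15, numpy 2.4.6, pandas 2.3.3, scipy 1.17.1 and matplotlib 3.10.9, and the counting code was tested on simulated peaks. The members, the lists of genes and the choice of names were made with earlier results of these data known. Names cover every HOX gene with a gene-end peak in both lists, the peaks of list 2 alone, and up to 4 genes of each other list. Alternatives were other distances, flanks, thresholds, overlap rules and motifs, and each list alone. 1 member is counted in the totals but not reported singly here. No test was run.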

Additional observations from a re-analysis of the deposited data

How the results depend on the processing

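Of 33 alternative values, 23 stayed within 1.5 times the reported count, or within the spread or interval of the reported value, and 10 did not. Peaks of at least 8-fold in the intervals numbered 5 in list 1, 10 in list 2 and 5 in both. Those with an FDR up to 5% numbered 3, 12 and 3. In the intervals 62.5% of list 1 and 47.6% of list 2 peaks reached that fold, against 15.6% and 13.5% of all peaks. For that FDR the shares were 37.5% and 57.1%, against 1.92% and 30.8% of all peaks. HOX genes with a gene-end peak in both lists numbered 14 within 5000 bp and 3 under that FDR limit. No share of all genes is given at 5000 bp, so the 14 cannot be set beside a background. For HOX genes in single lists, without replicate 1 or without replicate 2, the range was 8 to 13. The share of HOX promoters with an E-box was 57.7% with CACATG and CATGTG allowed (16.5% of all promoters). Counting starts alone, or the list 1 centre alone, was added after the data were seen and gave 7 and 8 HOX genes. A share of all genes is given for neither rule. No paired analysis was possible because the lists are 2 finished comparisons of IP with input, and the result comes from no test. With 8 and 21 peaks, shares are imprecise, and list 1 FDRs were 16.1 to 72.3% at 5 of the 8 places.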

Other observations

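The HOX clusters also hold non-coding genes. Of 28 long non-coding RNA genes in the intervals, 4 had a peak centre within 1 kb of an end in list 1 and 5 in list 2, beside 5.47% and 11.4% of all 18303 such genes. In list 1 they included HOXA-AS3, HOXA11-AS and HOXC-AS1, each of which shares its peak with a HOX gene start. HOXA-AS3 had one in both lists. HOTTIP, at the 5′ edge of HOXA, lay 15624 bp from the nearest peak centre of list 1 and 16336 bp from that of list 2.

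None of the 8 microRNA genes of the intervals had a peak centre within 1 kb in either list, beside 3.40% and 6.43% of all 1913 microRNA genes. The closest was MIR196A2, whose microRNA is known to target HOX transcripts, at 8223 bp in list 1 and 2940 bp in list 2. MIR10B was 4984 bp from a list 2 peak.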
